A study of Rattus norvegicus with 36 samples.

Results

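Hexabromocyclododecane (HBCD) is a brominated flame retardant, and 64.1 mg/kg was the second highest dose given to the rats. Its 6 liver arrays were compared with the 18 arrays of the 3 lower doses, 6 each at 6.41, 0.641 and 0.06 mg/kg, out of 36 arrays in all. The arrays were chosen by their dose labels alone, and all 31042 probe sets that were not controls entered the test. Every animal was a male Harlan Sprague Dawley rat, 7 weeks old at the start, on the NTP-2000 diet. The rats received HBCD in corn oil by oral gavage, 5 ml/kg of body weight, for 5 consecutive days, and the left lobe of the liver was taken 1 day after the last dose. No vehicle array entered the comparison, so every animal in it had received both corn oil and HBCD, and the comparison asks what distinguished 64.1 mg/kg from smaller doses of the same compound. The arrays at 641 mg/kg and the vehicle arrays, 6 each, are used only where they are named. The labels number the replicates without saying that each came from a separate rat. Each p-value is therefore set against the scatter among these arrays, part or all of which may be technical.

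The liver answers many foreign lipophilic compounds through 2 nuclear receptors, the constitutive androstane receptor (CAR) and the pregnane X receptor (PXR). Once active, each pairs with the retinoid X receptor on DNA and raises transcription of genes for oxidation, conjugation and export of the compound. Cyp3a genes are classical targets of PXR and Cyp2b genes of CAR, and their target sets overlap widely. The encoded enzymes also clear bile acids, steroids and thyroid hormone.

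At 64.1 mg/kg, 9 of the 31042 probe sets differed from the mean of the 3 lower doses, which is 0.029% of those tested, at an adjusted p under 0.05 (limma, Benjamini-Hochberg). They comprised 8 that rose (0.0258%) and 1 that fell (0.00322%). The genes that rose were the monooxygenases Cyp3a23-3a1 and Cyp3a18, the glucuronosyltransferases Ugt2b1 and Ugt2a1, the carboxylesterase Ces2c, the aldehyde dehydrogenase Aldh1a1, the microsomal glutathione transferase Mgst2 and the exporter Abcc3. The gene that fell was Fabp5, which encodes a fatty acid binding protein. The rises ran from 1.24-fold to 1.77-fold, and each of the 9 genes had a single probe set. Before adjustment, 1737 probe sets (5.6%) had an unadjusted p under 0.05, against the 1552 that this threshold gives by chance.

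The number of calls varied with single arrays. It was 2 without 64.1 mg/kg replicate 4 or 5, 3 without 64.1 mg/kg replicate 2 or 3, and 5 without 0.06 mg/kg replicate 5 or 0.641 mg/kg replicate 6. Cyp3a23-3a1 and Ugt2b1 were called in all 24 fits that left out 1 array. Ces2c was called in 22 of them, Cyp3a18 in 20, Ugt2a1, Mgst2 and Aldh1a1 in 18 each, and Abcc3 and Fabp5 in 12 each.

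**Figure D1:**
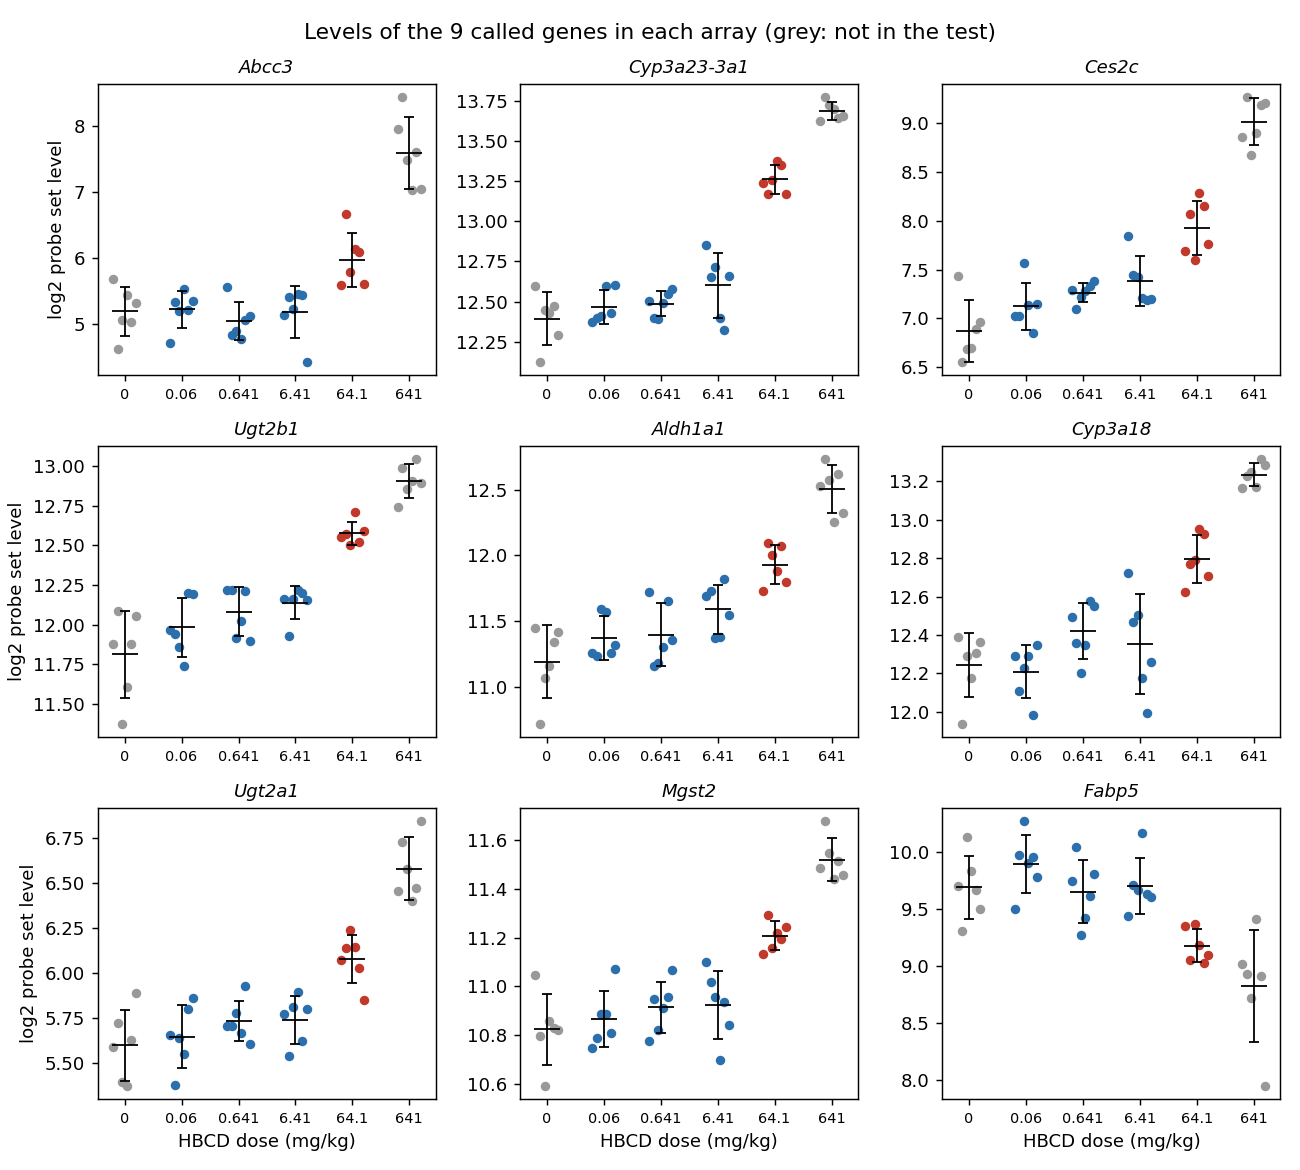
Log2 probe set level of the 9 called genes in every array, by HBCD dose in mg/kg, where 0 is corn oil vehicle. Points are single arrays, red at 64.1 mg/kg, blue at the 3 lower doses and grey for groups outside the test, and bars show the mean and SD of 6 arrays. For Cyp3a23-3a1, Ugt2b1, Mgst2 and Abcc3 all 6 red points lie above all 18 blue points.

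Of the enzymes that oxidise foreign compounds, Cyp3a23-3a1 set 64.1 mg/kg apart most clearly. It encodes a liver cytochrome P450 that oxidises many drugs and steroids. Its log2 levels ran from 13.17 to 13.37 at 64.1 mg/kg, with a median of 13.25. The range was from 12.32 to 12.86 at 6.41 mg/kg (median 12.66), from 12.39 to 12.58 at 0.641 mg/kg (median 12.50) and from 12.37 to 12.60 at 0.06 mg/kg (median 12.42). The lowest array at 64.1 mg/kg thus lay above the highest of the lower doses. The mean was 13.26 ± 0.087 (SD, n = 6) against 12.52 ± 0.14 (SD, n = 18), a rise of 1.67-fold (95% CI 1.53 to 1.82; limma adjusted p = 1.38e-07).

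The upstream sequence of Cyp3a23-3a1 is printed because it was the one promoter among the called genes that held an arrangement of half-sites known for binding by PXR and CAR with the retinoid X receptor. Its neighbour in the same family, Cyp3a18, is set beside it. Both are RefSeq sequences of assembly GRCr8 and cover 250 bases before and 50 after the annotated start, 5′ to 3′ along the gene. Cyp3a23-3a1 lies on the minus strand at chr12:14398754-14399053 and Cyp3a18 on the plus strand at chr12:13994062-13994361. Capitals mark the match.
Cyp3a23-3a1: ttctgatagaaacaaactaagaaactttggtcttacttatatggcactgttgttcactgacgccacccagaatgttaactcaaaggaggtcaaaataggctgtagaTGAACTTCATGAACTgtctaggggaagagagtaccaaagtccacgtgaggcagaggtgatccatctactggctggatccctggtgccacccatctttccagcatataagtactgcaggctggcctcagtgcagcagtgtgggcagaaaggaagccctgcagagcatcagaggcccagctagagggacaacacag
Cyp3a18: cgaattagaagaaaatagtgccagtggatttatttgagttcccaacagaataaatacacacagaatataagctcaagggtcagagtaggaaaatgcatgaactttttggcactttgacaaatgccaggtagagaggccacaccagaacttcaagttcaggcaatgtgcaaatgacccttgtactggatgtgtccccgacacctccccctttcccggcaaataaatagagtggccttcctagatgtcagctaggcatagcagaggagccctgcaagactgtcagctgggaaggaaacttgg
The search covered both strands for the nuclear receptor half-site in the arrangements called DR3, DR4 and ER6, direct repeats with 3 or 4 bases between them and an everted repeat with 6. The match in Cyp3a23-3a1 is a DR3, TGAACTTCATGAACT, which reads as a repeat of AGTTCA on the other strand and lies 144 to 130 bases before the start. Among 33469 promoters of this length, 33 held a DR3 (0.0986%), 27 a DR4 (0.0807%), 9 an ER6 (0.0269%) and 69 any of them (0.206%). Of the 9 called genes, 5 had a promoter sequence, and Ces2c, Ugt2b1, Aldh1a1 and Cyp3a18 held none of the arrangements in this window. Binding was not measured, and a match describes letters only.

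Cyp3a18 encodes another monooxygenase of the Cyp3a family, more abundant in male than in female rats. At 64.1 mg/kg its log2 levels lay between 12.63 and 12.95, with a median of 12.78, and over the lower doses between 11.98 and 12.72, with a median of 12.32. The upper end of the lower doses reached into the 64.1 mg/kg range, and 4 of the 6 arrays lay above all 18. The rise was 1.38-fold (95% CI 1.23 to 1.55; limma adjusted p = 0.0288). Cyp3a9 (1.38-fold, 95% CI 1.08 to 1.76, adjusted p = 0.815) and Cyp3a2 (1.09-fold, 1.04 to 1.15, adjusted p = 0.506) did not pass the test.

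The classical CAR targets Cyp2b1 and Cyp2b2 share 1 probe set, whose signal cannot be assigned to either gene, and it was chosen for description after its values were seen. Its log2 levels ran from 11.57 to 11.92 at 64.1 mg/kg, with a median of 11.79. Over the 18 lower-dose arrays they ran from 9.999 to 11.81, with a median of 10.93. The 64.1 mg/kg arrays sat close together at the top of this range, with an SD of 0.126 against SDs of 0.511, 0.502 and 0.535 at 6.41, 0.641 and 0.06 mg/kg. The fitted difference was 1.79-fold (95% CI 1.36 to 2.36), and it did not pass the test (limma adjusted p = 0.259). The difference in spread was not tested. Por, the electron donor of microsomal P450 enzymes, stood at 1.12-fold (1.00 to 1.25, adjusted p = 0.871), and Alas1, the first enzyme of heme synthesis, at 1.05-fold (0.913 to 1.22, adjusted p = 0.960).

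Conjugating enzymes made up the next group. Ugt2b1 encodes a glucuronosyltransferase that attaches glucuronic acid to steroids and drugs. The 64.1 mg/kg arrays had log2 levels from 12.50 to 12.71 (median 12.56). The lower doses ran from 11.93 to 12.22 at 6.41 mg/kg (median 12.16), from 11.90 to 12.22 at 0.641 mg/kg (median 12.12) and from 11.74 to 12.20 at 0.06 mg/kg (median 11.95). All 6 arrays at 64.1 mg/kg lay above all 18 others. The rise was 1.42-fold (95% CI 1.30 to 1.56; limma adjusted p = 3.92e-04).

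Ugt2a1 encodes another glucuronosyltransferase. Its log2 levels ran from 5.85 to 6.24 at 64.1 mg/kg (median 6.11) and from 5.38 to 5.93 over the lower doses (median 5.70). These levels lay not far above the array medians of 4.84 to 4.89, and the files hold no detection calls. All but 1 of the 64.1 mg/kg arrays lay above every lower-dose array. The rise was 1.30-fold (95% CI 1.18 to 1.42; limma adjusted p = 0.0288). The Ugt1a genes share exons, and both probe sets listed under the whole cluster, chosen after their values were seen, stood at 1.17-fold (adjusted p = 0.0884) and 1.22-fold (adjusted p = 0.110).

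Mgst2 encodes a membrane-bound glutathione transferase. On the log2 scale it ran from 11.13 to 11.30 at 64.1 mg/kg (median 11.21) and from 10.70 to 11.10 over the lower doses (median 10.90). The groups did not overlap, and the rise, though the smallest of the 8, was 1.24-fold (95% CI 1.15 to 1.33; limma adjusted p = 0.0288). Of the soluble glutathione transferases, Gsta3 stood at 1.69-fold (1.35 to 2.13) without passing the test (adjusted p = 0.158). Gsta3 ran from 7.80 to 9.07 on the log2 scale at 64.1 mg/kg and from 6.89 to 8.28 over the lower doses, so its groups overlapped. Gstm1 stood at 1.15-fold (1.07 to 1.23, adjusted p = 0.379).

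Ces2c and Aldh1a1 encode enzymes that hydrolyse esters and oxidise retinal and other aldehydes. Ces2c ran from 7.60 to 8.28 at 64.1 mg/kg on the log2 scale (median 7.92) and from 6.85 to 7.84 over the lower doses (median 7.21). Only 3 of the 6 arrays exceeded all 18, yet the means of 7.92 ± 0.28 (SD, n = 6) and 7.26 ± 0.22 (SD, n = 18) differed by 1.59-fold (95% CI 1.38 to 1.83; limma adjusted p = 0.00579). Aldh1a1 ran from 11.73 to 12.10 at 64.1 mg/kg (median 11.94) and from 11.16 to 11.82 over the lower doses (median 11.38). It rose 1.39-fold (95% CI 1.23 to 1.57; limma adjusted p = 0.0288), with 4 of 6 arrays above all 18. Ephx1, the epoxide hydrolase that opens reactive epoxides, stood at 1.22-fold (1.12 to 1.33) and did not pass (adjusted p = 0.126).

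Abcc3 pumps conjugates from the hepatocyte into the blood. Its log2 levels ran from 5.59 to 6.67 at 64.1 mg/kg (median 5.94) and from 4.43 to 5.56 over the lower doses (median 5.21). The groups did not overlap, although the highest lower-dose array came within a few hundredths of the lowest at 64.1 mg/kg. This was the largest called rise, 1.77-fold, with the widest interval among the 8 (95% CI 1.43 to 2.19; limma adjusted p = 0.0336). The lower-dose levels lay close to the array medians of 4.84 to 4.89, and the files hold no detection calls. Among other transporters, the uptake carrier Slco1a4 stood at 1.26-fold (adjusted p = 0.223), the canalicular exporter Abcc2 at 1.14-fold (adjusted p = 0.810) and Abcb1a at 1.13-fold (adjusted p = 0.871).

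In these 4 genes, Cyp3a23-3a1, Ugt2b1, Mgst2 and Abcc3, every array at 64.1 mg/kg exceeded every lower-dose array. They were the only such probe sets among all tested (0.0129%), and in 0 probe sets did all 6 arrays lie below all 18 (0%). Neither receptor gene was called. Nr1i2, which encodes PXR, stood at 1.00-fold (95% CI 0.922 to 1.09, adjusted p = 0.999) and Nr1i3, which encodes CAR, at 0.924-fold (0.777 to 1.10, adjusted p = 0.946).

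Fabp5 was the single gene that fell. It encodes an intracellular carrier of fatty acids found in many cell types. Log2 levels of Fabp5 ran from 9.02 to 9.36 at 64.1 mg/kg (median 9.14) and from 9.27 to 10.27 over the lower doses (median 9.73), and 4 of the 6 arrays lay below all 18. The means were 9.18 ± 0.15 (SD, n = 6) and 9.75 ± 0.27 (SD, n = 18), so that Fabp5 was 1.49-fold lower (95% CI 1.28 to 1.72; limma adjusted p = 0.0336). Scd, which puts the first double bond into saturated fatty acids, was 1.76-fold lower without passing the test (adjusted p = 0.584). Log2 levels of Scd ran from 8.10 to 9.83 at 64.1 mg/kg and from 9.40 to 11.29 over the lower doses.

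All 8 genes that rose are on a list of targets of CAR and PXR, which was drawn up with earlier results of these arrays known and is no independent evidence of its direction. Of its 35 members, 27 had a probe set with a single symbol, 8 rose and none fell, against 0.0258% of all probe sets that rose. A further 16 lay above 0 without passing, so that 24 of 27 differences were positive. The median log2 difference of the 27 was 0.29, against 0.0054 over all probe sets. At an unadjusted p under 0.05, 18 members lay higher and none lower, where 3.26% of all probe sets lay higher. The members below 0 were Cyp2c7, Gadd45b and Tsku, with the lowest at -0.10 on the log2 scale.

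**Figure D2:**
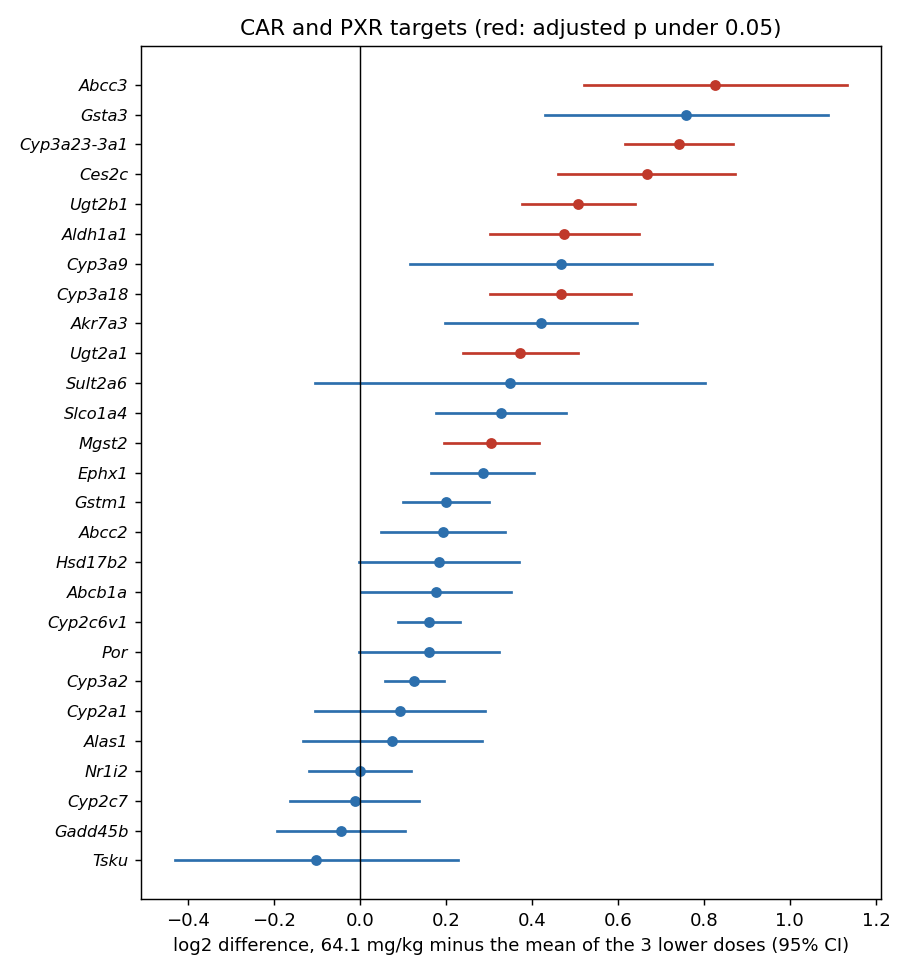
Log2 difference between 64.1 mg/kg and the mean of the 3 lower doses for the 27 measured members of the CAR and PXR list, with 95% confidence intervals from limma. Red marks the 8 members with an adjusted p under 0.05, and 24 of the 27 points lie above 0.

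The 64.1 mg/kg group was also compared with each lower dose alone, in 3 contrasts that share the 64.1 mg/kg arrays. Against 6.41 mg/kg, only Cyp3a23-3a1 was called (0.00322%), at 1.58-fold (limma adjusted p = 9.98e-05). Against 0.641 mg/kg, Cyp3a23-3a1 (1.71-fold) and Ugt2b1 (1.41-fold) were called (0.00644%). Against 0.06 mg/kg, 8 probe sets were called (0.0258%), of which 7 were higher (0.0226%) and 1 was lower (0.00322%). The 7 were Gsta3 (2.10-fold), Ces2c (1.74-fold), Cyp3a23-3a1 (1.73-fold), Ugt2b1 (1.51-fold), Cyp3a18 (log2 difference 0.59), Aldh1a1 (1.47-fold) and Ugt2a1 (1.35-fold), and the one that fell was Fabp5. Abcc3 and Mgst2 were called in none of the 3 single contrasts.

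A difference between the lower doses themselves was tested separately. The contrast of 6.41 mg/kg with the mean of 0.641 and 0.06 mg/kg is orthogonal to the comparison with 64.1 mg/kg, and 0 probe sets were called in limma (0%), with 1358 (4.37%) at an unadjusted p under 0.05. A moderated F test among the 3 lower doses also called 0 (0%), with 1171 (3.77%) at an unadjusted p under 0.05. All 9 genes nevertheless differed at 6.41 mg/kg in the direction they took at 64.1 mg/kg, where 51.1% of all probe sets lay above 0 and 48.9% below. The smallest unadjusted p among them was 0.0294, for Aldh1a1 (log2 difference 0.21). Mean levels followed the order of the 3 lower doses, 0.06 below 0.641 below 6.41 mg/kg, in 6 of the 8 genes that rose, against 16.4% of all probe sets. Cyp3a18 and Abcc3 did not follow it.

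The arrays at 641 mg/kg and the vehicle arrays give a comparison that shares no array with the one above. It called 327 probe sets (1.05%), 231 higher (0.744%) and 96 lower (0.309%). All 9 genes were among them in the same direction, which is 100% of the 9 and 2.75% of the 327. Each difference was larger in that comparison. Abcc3 stood at 5.26-fold (95% CI 3.80 to 7.29), Ces2c at 4.41-fold (3.60 to 5.40), Aldh1a1 at 2.48-fold (2.08 to 2.95) and Cyp3a23-3a1 at 2.45-fold (2.20 to 2.72). Ugt2b1 stood at 2.13-fold, Cyp3a18 at 1.99-fold, Ugt2a1 at 1.97-fold, Mgst2 at 1.62-fold and Fabp5 at 0.549-fold. By fold change, Cyp3a23-3a1 came after only Abcc3 at 64.1 mg/kg, and here after Ces2c and Aldh1a1 too. The intervals of Cyp3a23-3a1 and Aldh1a1 overlap here, and the reference differs, so these orders are not a like comparison of doses. Mean log2 levels in vehicle and in the pooled lower doses were 11.195 and 11.455 for Aldh1a1, and 12.394 and 12.518 for Cyp3a23-3a1.

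Of the 231 probe sets higher at 641 mg/kg than in vehicle, 188 (81.4%) lay above 0 at 64.1 mg/kg, against 53.2% of all probe sets, with a median log2 difference of 0.09. Of the 96 that were lower, 84 (87.5%) lay below 0, against 46.8% of all, with a median of -0.09. Over all probe sets the correlation between both sets of differences was 0.178 (Pearson's r across probe sets, which are not independent replicates). Slc6a6, the taurine transporter, was 0.279-fold at 641 mg/kg against vehicle (adjusted p = 3.88e-05) and 0.773-fold at 64.1 mg/kg (adjusted p = 0.871). Scd was 0.256-fold at 641 mg/kg (adjusted p = 0.0210).

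**Figure D3:**
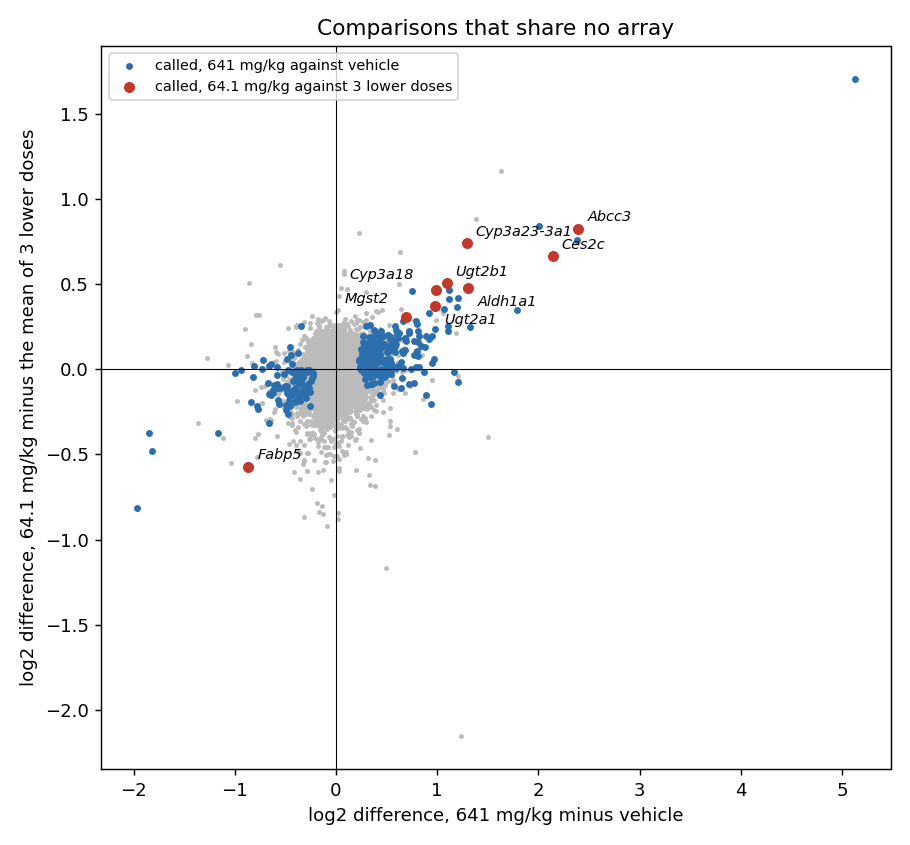
Each point is a probe set, with the log2 difference between 641 mg/kg and vehicle on the horizontal axis and that between 64.1 mg/kg and the mean of the 3 lower doses on the vertical axis. Blue marks the 327 probe sets called in the former comparison and red the 9 called in the latter, which lie in the corners where both differences have the same sign.

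NRF2 controls genes of glutathione and redox metabolism. Of 23 measured members of its list, 1 rose, against 0.0258% of all probe sets, and this was Abcc3, which is counted among the CAR and PXR targets too. The median log2 difference was 0.11, and 19 members lay above 0, against 53.2% of all probe sets. At an unadjusted p under 0.05, 9 lay higher, against 3.26%. Gsta3, Ephx1, Gstm1 and Akr7a3 (1.34-fold, adjusted p = 0.477) belong to both lists too. They and Abcc3 are all among the 9 NRF2 members higher at an unadjusted p under 0.05, so most of those members are counted in both lists. Of the 9 called genes, only Abcc3 is on the NRF2 list. Targets of the aryl hydrocarbon receptor had 0 of 9 members called, against 0.029% of all probe sets, and a median of 0.03. Cyp1a1 stood at 0.986-fold (95% CI 0.817 to 1.19) and Cyp1a2 at 0.902-fold (0.845 to 0.964, adjusted p = 0.720). Targets of PPARalpha, which governs fatty acid oxidation, had 0 of 23 called, against the same 0.029%, and a median of -0.03. Cyp4a1 stood at 0.838-fold (adjusted p = 0.871) and Cyp4a3 at 0.865-fold (adjusted p = 0.870).

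Genes of cholesterol synthesis had 0 of 19 members called, against 0.029% of all probe sets. In this list 17 lay below 0, against 46.8% of all probe sets, with a median log2 difference of -0.06. The number below 0 was 13 without the 6.41 or the 0.641 mg/kg group. Without 64.1 mg/kg replicates 2, 3 and 4, arrays picked for their low macrophage values, it was 18, with a median of -0.20. In that fit 6 members were lower at an unadjusted p under 0.05, against 2 with all arrays. The median was positive, at 0.20 with 0 members called, between the highest dose and vehicle, which share no array with this comparison. At 6.41 mg/kg, 16 of the 19 members lay above the mean of 0.641 and 0.06 mg/kg, with a median of 0.06. At 64.1 mg/kg against the lower doses, Insig1, which restrains sterol synthesis, had the smallest p, at 0.657-fold (95% CI 0.462 to 0.936, adjusted p = 0.863). Fatty acid and triglyceride synthesis had 0 of 21 called, against 0.029% of all probe sets, and a median of -0.03. Bile acid synthesis and transport had 0 of 22 called, against the same 0.029%, and a median of 0.01. In that list the uptake carrier Slco1a1 stood at 1.13-fold (1.07 to 1.19, adjusted p = 0.202), and Cyp7a1, which starts the classical route from cholesterol to bile acids, at 0.928-fold with a wide interval (0.553 to 1.56).

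Thyroid hormone is cleared in part by glucuronidation in the liver. Of 17 measured genes of thyroid hormone handling and response, only Ugt2b1 rose, against 0.0258% of all probe sets, and the median was -0.0023. Dio1, the deiodinase of liver, stood at 1.08-fold (0.987 to 1.18, adjusted p = 0.892). Of 12 male-predominant genes only Cyp3a18 rose, against 0.0258% of all probe sets, with a median of 0.03. Ugt2b1 and Cyp3a18 are both counted among the 8 CAR and PXR targets that rose. Cyp2c11, the main male P450, stood at 1.03-fold (0.960 to 1.10). Of 11 female-predominant genes 0 were called, against 0.029% of all probe sets, 10 lay above 0, against 53.2%, and the median was 0.11. Of these, 5 had mean levels below the lowest array median of 4.84, and may lie close to background. A1bg had the smallest p in that list (1.14-fold, adjusted p = 0.830). Its mean log2 level was only 3.67 at 64.1 mg/kg and 3.48 over the lower doses.

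In the other 8 lists of liver functions, 0 members were called, where 0.029% of all probe sets were. At that share a list of this size would seldom hold a call. A count of 0 thus does not show an unchanged function, here or in the other lists with 0 called. The medians were -0.0010 for 29 cell cycle genes, -0.03 for 14 p53 targets, -0.01 for 24 genes of endoplasmic reticulum stress and -0.02 for 26 acute phase genes. They were 0.03 for 18 clock genes, -0.0059 for 15 genes of gluconeogenesis and glycolysis, -0.01 for 19 of the urea cycle and amino acid catabolism and -0.0073 for 19 of secreted hepatocyte proteins. The members with the smallest p included the cyclin Ccnd1 (0.752-fold, 95% CI 0.637 to 0.888, adjusted p = 0.618) and the urea cycle enzyme Ass1 (0.864-fold, 0.790 to 0.944, adjusted p = 0.618).

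The samples carried the profile of liver. Hepatocyte markers were high in all 24 arrays, from a lowest log2 level of 8.50 for Tat to 14.26 for albumin. Of the 10, 0 were called, against 0.029% of all probe sets, with a median difference of -0.02. Within a dose group, pairs of arrays had correlations of 0.991 to 0.996 over the probe sets. The difference between 3-prime and 5-prime control probe sets, a measure of RNA integrity, was -0.0040 ± 0.070 (SD, n = 6) at 64.1 mg/kg and -0.013 ± 0.066 (SD, n = 18) at the lower doses for Gapdh (exact permutation test, two-sided, p = 0.722). For actin it was 1.19 ± 0.12 and 1.19 ± 0.13 (exact permutation p = 0.947).

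Macrophage markers varied within the 64.1 mg/kg group. Of 22 such genes 18 were measured and 0 were called, where 0.029% of all probe sets were. Of the 18, 17 lay below 0 and 10 lay lower at an unadjusted p under 0.05, where 2.33% of all probe sets did. Their median log2 difference was -0.31. The mean log2 level over the 18 was 7.72, 7.53 and 7.61 in 64.1 mg/kg replicates 2, 3 and 4, and 8.18, 8.25 and 8.12 in replicates 1, 5 and 6. It ran from 7.68 to 8.63 over the lower-dose arrays, so that replicates 3 and 4 lay below all of these. Cd68 stood at 0.793-fold (95% CI 0.628 to 1.00), Cd163 at 0.867-fold (0.731 to 1.03) and the Kupffer cell lectin Clec4f at 0.750-fold (0.575 to 0.979). In bulk liver, fewer cells of a type and less RNA per cell cannot be told apart.

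**Figure D4:**
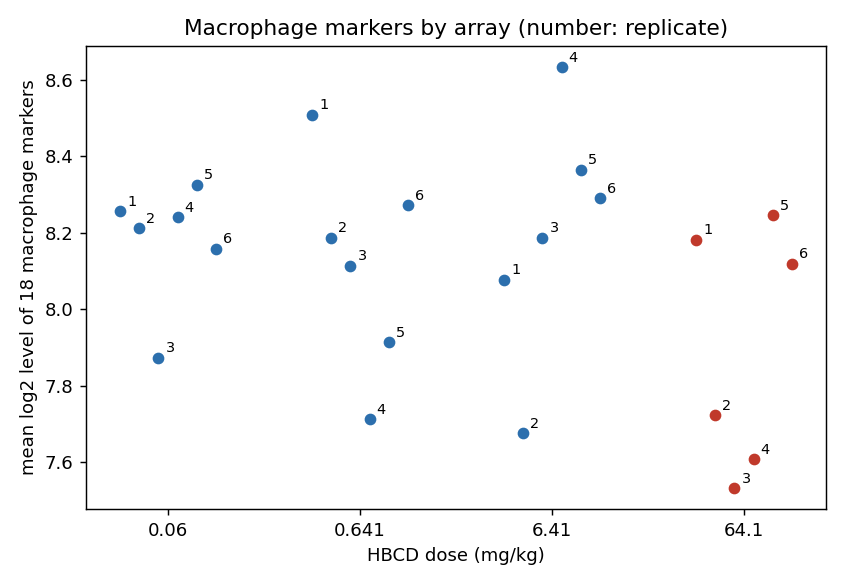
Mean log2 level of 18 macrophage markers in each array, by HBCD dose in mg/kg, with replicate numbers beside the points. At 64.1 mg/kg, replicates 2, 3 and 4 lie between 7.53 and 7.72 and replicates 1, 5 and 6 between 8.12 and 8.25.

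A fit without 64.1 mg/kg replicates 2, 3 and 4 left out arrays picked for their low macrophage values, so the marker levels in it are set by that choice and are not given. It leaves 3 arrays at 64.1 mg/kg, and 8 of the 9 calls were lost. The CAR and PXR median was then 0.22, with 22 of 27 members above 0 and 15 lying higher at an unadjusted p under 0.05. Cyp3a23-3a1 remained called, at 1.66-fold (limma adjusted p = 3.32e-04), and was the 1 call left. Ugt2b1 stood at 1.40-fold (adjusted p = 0.195), Ces2c at 1.52-fold (adjusted p = 0.453), Abcc3 at 1.53-fold (adjusted p = 1) and Fabp5 at 0.662-fold (adjusted p = 0.697).

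No marker of another cell type was called, where 0.029% of all probe sets were. The medians were -0.01 for 7 neutrophil markers, -0.05 for 15 of T and NK lymphocytes, 0.03 for 7 of B lymphocytes, 0.02 for 11 endothelial markers and -0.06 for 15 of stellate cells and fibroblasts. They were 0.01 for 8 bile duct markers, 0.02 for 6 erythroid markers and -0.02 for 8 of exocrine pancreas. Many of these markers had mean levels below the lowest array median of 4.84. This held for 6 neutrophil, 10 T and NK, 4 B lymphocyte, 4 bile duct, 4 erythroid and 7 exocrine pancreas markers. It held for 0 endothelial and 0 stellate cell and fibroblast markers. Probe sets that low may lie close to background, so a median near 0 does not show equal levels there. The lymphocyte gene Cd8a stood at 0.804-fold (adjusted p = 0.830). The part of these cell types in the gene differences was not tested.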

How the data were processed

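The series holds 36 rat liver arrays of transcript levels, and 24 entered the main comparison. The deposited values are log2 expression per probe set. Per the submitters' processing notes, the authors used RMA, which corrects background, normalizes between arrays and summarises probes, with affy. The version of neither is given in the sources used here. Values between 1.526 and 14.588 show the log2 scale. Precision is limited by how many arrays there are. No arrays held identical values.

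Of 31099 probe sets, 57 controls were left out. Of the rest, 20826 had 1 gene symbol in the platform annotation, 436 several and 9780 none. A RefSeq gene table (GRCr8) gave current symbols to 20758 through gene IDs and to 2 through accessions, and 66 stayed as listed. Each of 14217 symbols was represented by its probe set with the highest mean.

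The design text names R/maanova, and limma 3.58.1 in R 4.3.3 was used here. Group was a factor with 4 levels, and the contrast was 64.1 mg/kg minus the mean of the 3 lower groups, two-sided, with Benjamini-Hochberg adjustment over all tested probe sets. Fold changes are from log2 differences, with 95% confidence intervals. The 641 mg/kg and vehicle arrays had a fit of their own. The step was tested on simulated data.

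The arrays compared, 18 lists of liver functions, 10 lists of markers and the rule for named genes were chosen with earlier results of these data known. The rule took up to 15 called genes each way, up to 4 called members of each list each way, the member of smallest p in lists with no call, and 23 further genes. Other genes were chosen after their values were seen. The alternatives were a replicate block, other normalizations, filters, variance models, array weights, a fold minimum of 1.5 and left-out arrays or groups.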

Additional observations from a re-analysis of the deposited data

Results flagged for a closer look

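Among 47 named genes in 4 groups, 188 sets of 6 arrays were checked for an array far from the other 5, and 10 had one. Chance alone flags about 1 in 20 such sets. Ugt2b1 at 6.41 mg/kg had a lowest log2 level of 11.93 in replicate 2, with the nearest array at 12.16. Abcc3 at 6.41 mg/kg had a lowest level of 4.43 in replicate 6, with the nearest at 5.14. At 64.1 mg/kg, Slco1a1 was highest in replicate 3 (10.21, nearest 10.06) and A1bg in replicate 2 (3.92, nearest 3.68).

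At 0.641 mg/kg, Scd was lowest in replicate 2 (9.55, nearest 10.09), Gpi in replicate 1 (8.52, nearest 8.77) and Cyp7a1 in replicate 4 (9.70, nearest 10.91). At 0.06 mg/kg, Ccnd1 was lowest in replicate 4 (8.49, nearest 9.05), Cyp4a3 in replicate 2 (11.12, nearest 11.25) and Cd68 in replicate 3 (7.56, nearest 8.03).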

How the results depend on the processing

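Against the mean of the 3 lower doses, 9 probe sets were called, and leaving out each of the 24 arrays in turn gave 2 to 10. The count was 2 without the 0.641 mg/kg group, 2 without the 0.06 mg/kg group, 6 without the 6.41 mg/kg group, 1 without 64.1 mg/kg replicates 2, 3 and 4, and 3 with a minimum of 1.5-fold. Fewer arrays enter the fits without groups or replicates. The labels do not say whether the replicate numbers pair the arrays, and the values do not settle it. Same-numbered arrays of different groups had correlations of their deviations between -0.183 and 0.321 (median 0.021). Arrays with different numbers had a median of -0.001. Of 36 same-numbered pairs 5 exceeded 0.1, and 6 of 24 arrays correlated best with their own number. With the replicate block the counts were 2 against the 3 lower doses, 1 against 0.641 mg/kg (2 without it), 3 against 0.06 mg/kg (8 without it) and 194 for 641 mg/kg against vehicle (327 without it). Variance trend with robust moderation gave 2 against 6.41 mg/kg (1 without it) and 496 for 641 mg/kg against vehicle, and the cause was not tested.

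The other settings gave 9 to 13 calls against the lower doses. Those were median centring, repeated quantile normalization, the lower doses as 1 group, all 36 arrays, array weights, variance trend, a group mean of at least 6 and gene means. Under variance trend and under all 36 arrays, Abcc3 and Fabp5 were not called. Of 38 alternatives, Cyp3a23-3a1 was called in 38, Ugt2b1 in 36, Ces2c in 32, Cyp3a18 in 29, Mgst2 and Aldh1a1 in 27 each, Ugt2a1 in 26 and Fabp5 in 18, and Abcc3 in 18 of 37. The filter for a group mean of at least 6 removed Abcc3, whose mean at 64.1 mg/kg was 5.98. The 9 called genes kept their direction in the alternatives that held them. Of 38 named genes that were not called, 9 changed sign in some alternative, with reported log2 differences of at most 0.399 in size, and Ephx1, Slco1a1, Cyp3a2 and Gsta3 were called in one or more. With 6 arrays at 64.1 mg/kg, a p that misses the threshold does not show equal levels, and probe sets near the array medians may lie close to background.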

Other observations

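In 6 of the 8 genes that rose at 64.1 mg/kg, the vehicle mean lay below the means of all 3 lower doses, against 24.1% of all probe sets. The vehicle means were 12.39 for Cyp3a23-3a1, 11.81 for Ugt2b1, 6.87 for Ces2c, 5.60 for Ugt2a1, 10.82 for Mgst2 and 11.20 for Aldh1a1. The lowest lower-dose means were 12.47, 11.98, 7.13, 5.65, 10.87 and 11.37. Cyp3a18 and Abcc3 were the exceptions.

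A probe set with no gene symbol here, 1368718_at, had the largest difference between 641 mg/kg and vehicle (34.9-fold, limma adjusted p = 0.00307) and was chosen after its values were seen. At 64.1 mg/kg its log2 level ran from 3.79 to 11.02, with a median of 10.52. Over the 18 lower-dose arrays it ran from 3.71 to 9.95, with a median of 8.31. In vehicle it ran from 3.63 to 8.51, and at 641 mg/kg from 11.28 to 12.48. It was not called at 64.1 mg/kg against the lower doses (3.27-fold, 95% CI 0.995 to 10.7, adjusted p = 0.871).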
